A study of Mus musculus with 180 samples.

Results

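GSK-461364, NMS-1286937, MK-5108 and SNS-314 are clinical kinase inhibitors (CKIs) designed against the kinases that run cell division. The supplier's target list names PLK1 for GSK-461364 and NMS-1286937, and the Aurora kinases for MK-5108 and SNS-314. These 4 compounds were taken from the 58 CKIs of the series by that designation, with earlier results of these data known. Volasertib, also listed against PLK1, was not among the 4 and is counted with the other 54 CKIs. The 4 compounds account for 12 of the 180 RNA-seq samples, 3 for each compound. They were set against 6 samples treated with the vehicle DMSO, deposited as 2 sets of 3. All samples were bone marrow-derived macrophages (BMDMs), that is, primary macrophages grown from the marrow of young adult male wild-type C57/BL6 mice. Every culture, DMSO controls included, was held with its compound or vehicle for 1 h and then stimulated with lipopolysaccharide (LPS) at 10 ng/ml for 2 h. LPS is a bacterial cell wall component that macrophages sense through TLR4. No unstimulated culture entered these comparisons, so a value below DMSO is a level in stimulated cells.

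PLK1 and Aurora A drive entry into mitosis, centrosome maturation and assembly of the spindle, while Aurora B, in the chromosomal passenger complex with INCENP, corrects the attachment of chromosomes and acts in cytokinesis. Inhibition of PLK1 is known to hold dividing cells in mitosis. BMDMs grown with CSF1 still divide, so the transcripts of the mitotic programme can be measured in them, but the exposure here was short relative to a cell cycle. Each compound was used at a single concentration, chosen in the study from its binding to another protein that it captured in a kinase binding assay: MAP3K1 for GSK-461364, casein kinase 2 for NMS-1286937, JAK2 for MK-5108 and ACOX3 for SNS-314. The concentration was highest for NMS-1286937, lower for GSK-461364, and lowest and nearly equal for MK-5108 and SNS-314. Only MK-5108 and SNS-314 were therefore compared with each other directly. The values of the other compounds are given side by side.

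The transcripts of most intended kinases were present in these cells, and none of them passed the test under any of the 4 compounds. Of 8 Polo-like and Aurora kinase genes, 5 passed the filter on low values (a mean of at least 10 normalized reads over all samples), and 0 of the 5 passed the test in any comparison of the 4 compounds with DMSO. A normalized value is the number of reads over a gene's exons, scaled by the authors so that samples are comparable. Divided by exon length, the DMSO means were 443.9 per kb for Aurkb, 396.7 for Plk2, 309.6 for Plk1, 151.4 for Aurka and 132.9 for Plk4. Plk3 and Aurkc were near 0, at 0.21 and 0.93 per kb, and Plk5 was at 0.

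Plk1 (mm10 chr7:122159435-122169884, + strand) had normalized values from 506 to 836 in DMSO, with a median of 710. It stood at 491, 597 and 506 with GSK-461364, at 482, 642 and 626 with NMS-1286937, at 681, 751 and 685 with MK-5108 and at 655, 847 and 649 with SNS-314. The samples of all 4 compounds overlapped the DMSO samples. The log2 fold change of Plk1 was −0.35 with GSK-461364 (95% interval −0.67 to −0.02, adjusted p = 0.305), and its adjusted p missed 0.05 with each of the other 3. Aurka, which encodes Aurora A, ranged from 200 to 379 in DMSO and stood at 425, 266 and 478 with MK-5108 and at 417, 331 and 323 with SNS-314, with log2 fold changes of 0.37 (adjusted p = 0.374) and 0.28 (adjusted p = 0.626). Aurkb, which encodes Aurora B, had log2 fold changes between −0.16 with GSK-461364 and 0.03 with SNS-314. Transcript levels say nothing about whether the kinase proteins were inhibited, which was not measured here. For Plk2, a Polo-like kinase induced by stress, NMS-1286937 gave −0.39 ± 0.13 (SE), which missed the threshold at adjusted p = 0.232 and passed it at 0.0167 when the replicate number was added as a block.

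The supplier and the binding assay name further targets, and these showed the same picture. Of 14 such genes, 10 were tested and 0 passed in any single-compound comparison, while Ntrk2, Flt4 and Ddr2 were at or near 0. Csnk2a1, which encodes a catalytic subunit of casein kinase 2, stood at 1419, 915 and 1153 with GSK-461364 and at 787, 740 and 756 with NMS-1286937, against 564 to 1092 in DMSO. Its log2 fold change with GSK-461364 passed only with the replicate block (0.55, adjusted p = 0.144 without it and 0.0401 with it). Csf1r, the CSF1 receptor that macrophages depend on and a listed target of SNS-314, differed by 0.01 between MK-5108 and SNS-314 (95% interval −0.11 to 0.14).

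The libraries differed in ways that the compounds do not label, and these values precede the results. Total normalized reads of the 12 libraries ran from 9477340 to 12095575, and those of the DMSO libraries from 9481416 to 11094387. Transcripts of the mitochondrial genome took 0.76% to 1.95% of the total in DMSO, but 4.10% in GSK-461364 replicate 1 and 3.09% and 2.51% in MK-5108 replicates 1 and 3. All NMS-1286937 and SNS-314 libraries were at or below 1.11%. No difference of the 4 compounds from DMSO in this share passed an exact permutation test of 3 against 6 samples (two-sided p from 0.119 to 0.357, adjusted over the 4 tests 0.317 to 0.357, smallest p the design allows 0.0119). That test does not use the replicate numbers, by which samples deviated together. Every GSK-461364 library was above both DMSO libraries of its own number and every SNS-314 library was below both. When samples were exchanged only within a number, the exact two-sided p was 0.037 for GSK-461364, which is the smallest that test can give, and 0.111 to 0.259 for the other 3, with adjusted p from 0.148 to 0.259. Macrophage markers were abundant in every library, with a summed value of 87412 or more over Adgre1, Cd68, Csf1r, Lyz2, Itgam, Cd14, Mrc1, Fcgr1 and Mertk, while over all 180 samples the T cell markers summed to 0 to 31, the B cell markers to 1 to 46, the erythroid markers to 0 to 6 and the mast cell markers to 0 to 3. The 7 neutrophil markers summed to 266 to 931 in DMSO, 480 to 1342 with GSK-461364 and 329 to 1433 with MK-5108, and to 328 to 410 and 395 to 644 with NMS-1286937 and SNS-314. Dendritic cell markers summed to 61 to 93 in DMSO, with Xcr1 as the largest part (mean 56). They summed to 35 to 45 with NMS-1286937, below every DMSO library, and to 49 to 79 with SNS-314, where 2 of the 3 libraries were below every DMSO library. With GSK-461364 they summed to 83 to 99 and with MK-5108 to 78 to 119. The part of these differences in the results was not tested, beyond the fits given beside them.

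Without the replicate block, genes changed past the threshold with 1 PLK1 inhibitor and 1 Aurora inhibitor, and with it also with the other PLK1 inhibitor. NMS-1286937 changed 50 of 12714 genes at an adjusted p below 0.05 (0.393% of the genes tested), of which 47 fell and 3 rose. SNS-314 changed 28 (0.22%), all of which fell. GSK-461364 and MK-5108 changed 0 genes each (0% for both), although 1915 and 1606 genes had an unadjusted p below 0.05. Among the 58 CKIs ranked by the number of genes changed against DMSO, NMS-1286937 was 24th and SNS-314 was 28th. Blocking on the replicate number gave counts of 161 for GSK-461364 (118 rose, 43 fell), 178 for NMS-1286937 (21 rose, 157 fell), 99 for SNS-314 (12 rose, 87 fell) and 0 for MK-5108. When the mitochondrial share entered the fit together with the block, the counts were 9 for GSK-461364, 250 for NMS-1286937 and 298 for SNS-314. Single libraries moved these counts: NMS-1286937 changed 13 genes without its replicate 3 and 27 without its replicate 1, and SNS-314 changed 1 gene without its replicate 1 and 13 without its replicate 2. The 95% interval of a single gene's log2 fold change reached 0.43 to either side in the median over genes. It is not adjusted for the number of genes, so a typical gene needed a larger change than that to pass with 3 samples.

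Ogfr, which encodes a receptor for the opioid growth factor met-enkephalin, gave the largest fall with both NMS-1286937 and SNS-314. Ogfr (mm10 chr2:180589407-180595837, + strand) ranged from 474 to 1182 in DMSO with a median of 923. It stood at 166, 128 and 191 with NMS-1286937 and at 128, 162 and 250 with SNS-314, so that all 6 samples lay below every DMSO sample. With GSK-461364 it stood at 546, 883 and 808, and with MK-5108 at 558, 827 and 1180, within the DMSO range. The log2 fold change was −2.36 ± 0.38 (SE) with NMS-1286937 (adjusted p = 4.53e-05) and −2.24 ± 0.38 with SNS-314 (adjusted p = 0.0002), a level 0.195 and 0.212 times that of DMSO. It was −0.17 with GSK-461364 (95% interval −0.92 to 0.58) and −0.01 with MK-5108 (−0.76 to 0.75).

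Tspyl1, a member of the nucleosome assembly protein family, fell in the same 2 groups with the smallest error relative to its size. Tspyl1 (mm10 chr10:34282190-34284885, + strand) ranged from 1350 to 1796 in DMSO, stood at 739, 635 and 430 with NMS-1286937 and at 633, 557 and 816 with SNS-314. GSK-461364 gave 1621, 1168 and 1128, and MK-5108 gave 1182, 1396 and 1215, partly within the DMSO range. Its log2 fold change was −1.40 ± 0.18 with NMS-1286937 (adjusted p = 3.62e-08) and −1.23 ± 0.18 with SNS-314 (adjusted p = 4.81e-06). The antisense gene Gm26564 overlaps Tspyl1, and since the libraries carry no strand, reads of both genes cannot be told apart.

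Other genes that fell were Was, Cyth1, Def6, Map3k11, Sertad2, Mxd1 and Fam177a. Was encodes the Wiskott-Aldrich syndrome protein, which drives actin branching in haematopoietic cells. Its normalized values were 271 to 482 in DMSO, 75, 161 and 116 with NMS-1286937, 109, 127 and 207 with SNS-314, 271, 291 and 481 with GSK-461364 and 328, 470 and 559 with MK-5108. It fell by 1.62 on the log2 scale with NMS-1286937 (adjusted p = 0.000794) and by 1.27 with SNS-314 (adjusted p = 0.0273). Cyth1, an exchange factor for ARF GTPases, stood at 116, 135 and 132 with NMS-1286937 and at 102, 123 and 223 with SNS-314 against 265 to 437 in DMSO, and fell by 1.39 on the log2 scale with the former (adjusted p = 0.00126) and fell by 1.25 with the latter (adjusted p = 0.00962). Def6, another exchange factor, fell by 1.63 with NMS-1286937 (adjusted p = 0.0106). Map3k11, a kinase upstream of JNK, fell by 1.19 with NMS-1286937 and by 1.29 with SNS-314. Sertad2 fell by 0.62 and 0.55, and Mxd1, a partner of MAX that opposes MYC, by 0.84 and 0.68. Fam177a fell by 1.17 and 1.13, but its near-identical copy Fam177a2 makes its counts uncertain. Of the genes changed, 45 of 50 with NMS-1286937 and 26 of 28 with SNS-314 had all 3 samples beyond all 6 DMSO samples. The genes were picked by a test on these same samples, so these counts are a description and no separate support. The share over all genes was not counted.

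**Figure D1:**
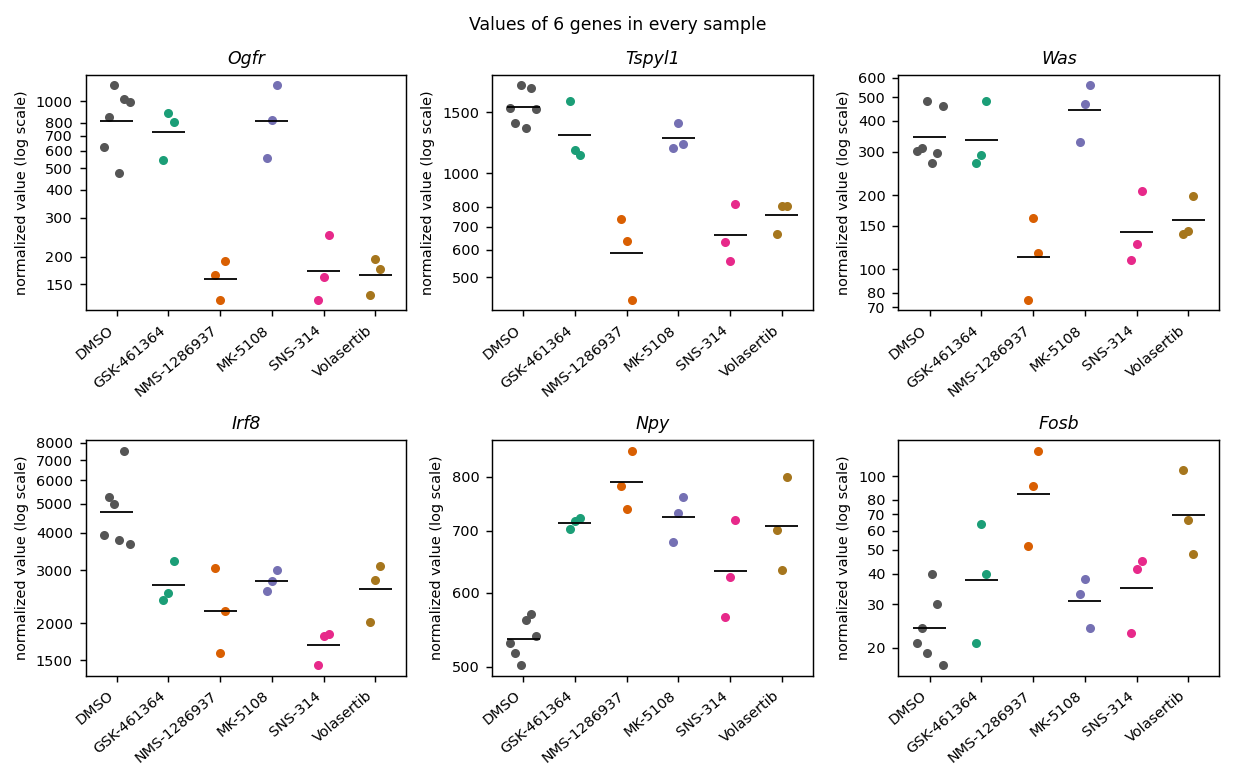
Normalized value of 6 genes in every sample of DMSO, the 4 compounds and Volasertib, another PLK1 inhibitor, on a log axis, with 1 point per sample and a line at the mean of the log2 values. Ogfr, Tspyl1 and Was are low in all NMS-1286937 and SNS-314 samples, and Irf8 is below DMSO in all 12 compound samples.

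Further genes changed with NMS-1286937. Aspm, which organizes spindle poles, stood at 42, 99 and 78 against 98 to 149 in DMSO, a fall of 0.84 ± 0.19 (adjusted p = 0.0145), and was lowest of all 58 CKI groups. With GSK-461364 the log2 fold change of Aspm was −0.05 and with SNS-314 −0.20. Ckap2l, a spindle protein, fell by 0.36 (adjusted p = 0.0131). Dhx16, a splicing helicase, fell by 1.70 (adjusted p = 0.0131) and Retreg3 by 1.63 (adjusted p = 0.00334). Hmgcs1, an enzyme of sterol synthesis, fell by 0.51 (adjusted p = 0.0341). Syn1 fell by 1.65 (adjusted p = 0.0398), and overlaps Araf and Timp1. The 3 rises were Fosb, Npy and Rpl28. Fosb (mm10 chr7:19302696-19310045, − strand), an immediate-early component of AP-1, stood at 52, 91 and 127 against 17 to 40 in DMSO, a rise of 1.77 ± 0.44 (adjusted p = 0.0337). The other compounds did not change Fosb past the threshold.

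Further genes that fell with SNS-314 were Irf8, Atf5, Zfp282, Zxdb and P3h1. Irf8, the factor that directs macrophage and dendritic cell fate, fell by 1.48 ± 0.31 (adjusted p = 0.00613). Atf5, a stress factor, fell by 1.24 (adjusted p = 0.0265) and overlaps Nup62 and Il4i1b. Zfp282 fell by 1.5 (adjusted p = 0.0256). Zxdb stood at 6, 7 and 9 against 10 to 26 in DMSO, a fall of 1.18 (adjusted p = 0.00861), but Zxda is nearly identical in sequence and its reads are uncertain. P3h1, a collagen-modifying enzyme, stood at 6, 5 and 9 against 13 to 46 in DMSO and fell by 1.77 (adjusted p = 0.0287). The 5 fibroblast markers, of which Dcn was at 0, summed to 10 to 63 with SNS-314 and to 28 to 180 in DMSO, 3 of them were tested and none passed, and their part in the value of P3h1 was not tested. Zxdb, P3h1 and Cmtm4 had their lowest mean of all 58 CKIs with SNS-314, at low read numbers.

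GSK-461364 and MK-5108 gave no gene past the threshold without the replicate block, and the genes with their smallest p are given as not passing. For GSK-461364 these were Slco4a1, Cd300lf, Trem1, Pcdh7 and Ttc7b. Slco4a1, an organic anion transporter, stood at 871, 1062 and 872 with GSK-461364, above all DMSO samples at 398 to 682 (log2 fold change 0.89, adjusted p = 0.0669, with the block 0.00805). Cd300lf, an inhibitory receptor of myeloid cells, stood at 264, 287 and 357 against 139 to 199 (0.80, adjusted p = 0.0669, with the block 0.00538). Trem1 was at 1.29 (adjusted p = 0.0669, with the block 0.0129, and 0.114 with the mitochondrial share added). For MK-5108 they were Fpgt, Rad51ap1, Tada3, Glmn and Rangrf, with adjusted p from 0.153 to 0.309, and none passed with the block. Fpgt stood at 86, 86 and 71 with MK-5108 against 108 to 174 in DMSO (−0.75), and Rad51ap1, a factor of homologous recombination, at 188, 137 and 219 against 84 to 134 (0.86). Both genes had all 3 MK-5108 samples outside the DMSO range.

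The genes that fell most were also low with CKIs of other targets. Over the 58 CKI group means, Ogfr ran from 133.7 to 1179. Ordered from the lowest, NMS-1286937 was 6th, SNS-314 10th, GSK-461364 46th and MK-5108 49th. The widest gap in this order, 0.45 on the log2 scale, came after the 18 lowest CKIs. These included Volasertib, another PLK1 inhibitor, which was 9th. They also included Filgotinib, a JAK inhibitor, Lapatinib, an EGFR inhibitor, and MK2206, an AKT inhibitor. Across the 58 group means the log2 level of Was, Cyth1, Tspyl1 and Dhx16 correlated with that of Ogfr with r of 0.96, 0.96, 0.95 and 0.95. These points share one experiment and one scaling, and are given as a description. Of the 12714 genes tested, 130 had r above 0.8 with Ogfr, while 29 of the 50 genes changed by NMS-1286937 and 14 of the 28 changed by SNS-314 did. The labels give no preparation batch, so that a batch and a compound cannot be told apart for these genes. Irf8, Npy and Fosb followed Ogfr less closely (r of 0.49, 0.22 and 0.08). Aspm had an r of 0.69 with Ogfr, beside a median r of 0.14 over all genes.

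**Figure D2:**
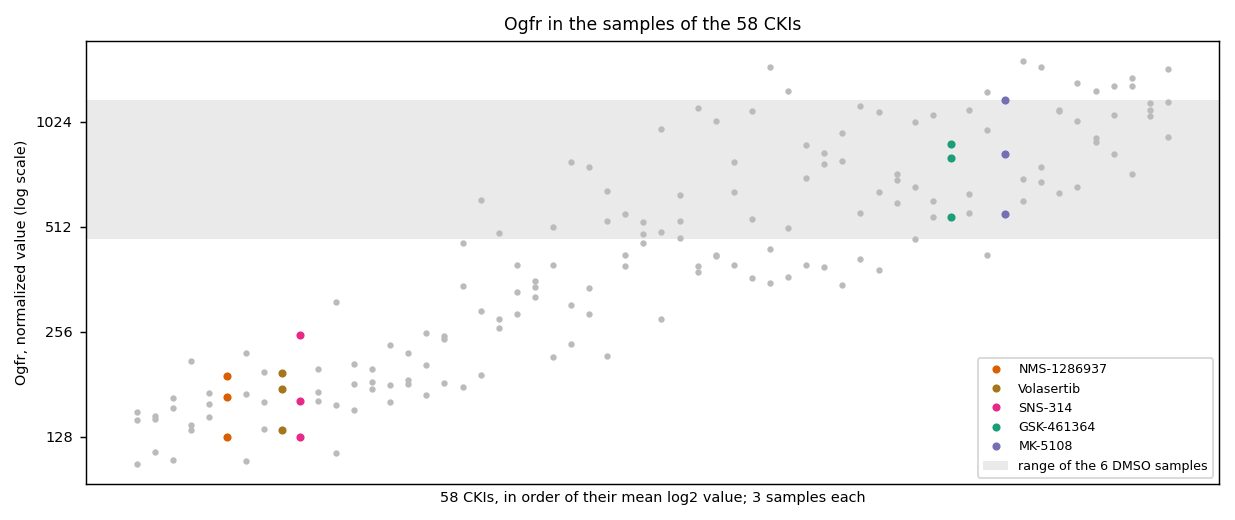
Ogfr in each sample of the 58 CKIs on a log axis, with CKIs ordered by their mean and the DMSO range as a grey band. NMS-1286937 and SNS-314 lie among the 18 lowest CKIs, and GSK-461364 and MK-5108 lie within the DMSO range.

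The other 54 CKIs together also differed from the same DMSO samples. Their mean changed 934 genes (7.35%), of which 682 rose and 252 fell, 2488 with the replicate block (1722 rose, 766 fell) and 549 with the mitochondrial share and the block. Of the 50 genes changed by NMS-1286937, 46 were below 0 in that comparison and 34 passed it, with a median of −0.39. Of the 28 changed by SNS-314, 26 were below 0 and 19 passed. Both comparisons share the DMSO samples. Against the mean of the other 54 CKIs, NMS-1286937 changed 156 genes (1.23%), 3 of which rose and 153 fell, SNS-314 changed 12 (0.0944%), GSK-461364 changed 1 (0.00787%) and MK-5108 changed 0 (0%). Blocked on the replicate number these counts were 1124 (95 rose, 1029 fell), 60, 13 and 0, and with the mitochondrial share added to the block 40, 2, 32 and 0. Leaving out single libraries of NMS-1286937 gave 17 to 36, of SNS-314 2 to 4, and of GSK-461364 0 to 41. Of the 50 genes changed against DMSO by NMS-1286937, 17 also passed against the 54 CKIs, and of the 28 changed by SNS-314, 4 did.

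The PLK1 inhibitors together changed 2 genes (0.0157%). Tspyl1 fell by 0.84 (adjusted p = 0.00128) and Npy, the precursor of neuropeptide Y, rose by 0.49 ± 0.09 (adjusted p = 0.005). The Aurora inhibitors together changed 5 genes (0.0393%), and all of them fell: Irf8, Tspyl1, Fam177a, Fam177a2 and Sertad2. Within each pair the compounds did not contribute equally, since Tspyl1 was at −0.27 with GSK-461364 and −1.40 with NMS-1286937, and at −0.30 with MK-5108 and −1.23 with SNS-314. With the replicate block the counts were 69 for the PLK1 pair and 56 for the Aurora pair. Without the libraries above 2.5% mitochondrial transcripts, which leaves MK-5108 with 1 sample that is assumed to vary like the other groups, the Aurora pair changed 0 genes.

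All 4 compounds together changed 23 genes against DMSO (0.181%), of which 18 fell and 5 rose. Irf8 (mm10 chr8:120736358-120756694, + strand) was the gene whose 12 compound samples all lay below all 6 DMSO samples. It ranged from 3680 to 7541 in DMSO, and stood at 2394, 2511 and 3233 with GSK-461364, 3061, 1587 and 2196 with NMS-1286937, 2551, 2762 and 3011 with MK-5108 and 1447, 1811 and 1833 with SNS-314. The fall over the 4 was 1.04 ± 0.22 (adjusted p = 0.00823). It missed the threshold with GSK-461364 (−0.81, adjusted p = 0.222), NMS-1286937 (−1.10, adjusted p = 0.0764, with the block 0.0394) and MK-5108 (−0.77, adjusted p = 0.362). In bulk RNA, fewer cells that express Irf8 and less Irf8 RNA per cell cannot be told apart. The dendritic cell marker sums given above consisted mostly of Xcr1 (mean 56 in DMSO), and their relation to Irf8 was not tested. Irf8 was below DMSO in 57 of the 58 CKIs.

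Npy (mm10 chr6:49822710-49829507, + strand) rose by 0.41 ± 0.08 with the 4 compounds (adjusted p = 0.0043). Its values were 502 to 569 in DMSO, 703, 717 and 722 with GSK-461364, 782, 738 and 853 with NMS-1286937, 680, 731 and 761 with MK-5108 and 565, 624 and 719 with SNS-314. Only 1 SNS-314 sample reached into the DMSO range. Trem1, a receptor that amplifies inflammatory signals in myeloid cells, rose by 0.86 (adjusted p = 0.0327), with 102 to 123 in GSK-461364, 78 to 107 in MK-5108, 71 to 93 in SNS-314, 41 to 69 in NMS-1286937 and 25 to 57 in DMSO. Prmt1, the main arginine methyltransferase for asymmetric dimethylation, rose by 0.47 (adjusted p = 0.0327). Without the 3 libraries above 2.5% mitochondrial transcripts, 3 of the 23 genes still passed, namely Tspyl1, Npy and Ube2r2, while Irf8 stood at −1.02 (adjusted p = 0.0712) and Ogfr at −1.14 (adjusted p = 0.167). All 23 genes also passed in the comparison of the other 54 CKIs with DMSO.

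Set against the mean of the other 54 CKIs, the 4 compounds differed in 4 genes (0.0315%), and 0 of the 23 above were among them. Cyp51, an enzyme of cholesterol synthesis, was higher by 0.23 ± 0.05 (adjusted p = 0.0302). Atg12 and Atg13, which act in autophagosome formation, were lower by 0.20 and 0.19 (adjusted p = 0.0302 for both). From the lowest of the 58 CKIs, GSK-461364, NMS-1286937, MK-5108 and SNS-314 were 40th, 32nd, 51st and 55th for Cyp51. They were 45th, 2nd, 11th and 5th for Atg12, and 27th, 3rd, 2nd and 1st for Atg13. The widest gap in the order of Cyp51, 0.93 on the log2 scale, came after the lowest CKI. That of Atg12, 0.94, came after the 56 lowest. The part of such extreme CKIs in these differences was not tested. Against DMSO none of these 3 genes passed, with log2 fold changes of −0.24 for Cyp51, 0.03 for Atg12 and −0.09 for Atg13. Cyp51 stood at 918 to 1055 with GSK-461364, 865 to 1078 with NMS-1286937, 976 to 1069 with MK-5108, 1038 to 1219 with SNS-314 and 999 to 1280 in DMSO, so that all 4 compounds overlapped DMSO. The DMSO value of 999 came from 1 sample apart from the other 5, at 1199 to 1280, below which all GSK-461364, NMS-1286937 and MK-5108 samples lay. Other genes of sterol synthesis did not pass against the 54 CKIs, with differences of 0.11 for Hmgcs1, 0.10 for Idi1 and 0.02 for Fdft1, and 0.23 for Sqle (adjusted p = 0.728, with the block 0.0168). Without the 3 libraries above 2.5% mitochondrial transcripts, Cyp51, Atg12 and Atg13 did not pass (adjusted p = 0.0869, 0.102 and 0.125), and without MK-5108 replicate 1 or 2 alone 0 genes passed.

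No member of the mitotic lists passed against DMSO, while 12 fell with NMS-1286937 against the other 54 CKIs. The lists held Aurora and PLK1 partners, G2/M regulators, spindle checkpoint and kinetochore genes, and spindle and cytokinesis genes, with 6, 15, 14 and 13 members tested, and 0 members passed against DMSO with any of the 4 compounds. With NMS-1286937, 12 of the 13 spindle and cytokinesis genes were below 0, with a median log2 fold change of −0.30 beside −0.04 over all genes. Of the 15 G2/M regulators 13 were below 0 with NMS-1286937, with a median of −0.24, and 8 were below 0 with GSK-461364, with a median of −0.16 beside 0.10 over all genes. These medians were −0.20 and −0.27 under scaling by the median of ratios. The medians of the spindle and cytokinesis list were −0.05 with GSK-461364, 0.09 with MK-5108 and −0.05 with SNS-314, beside 0.10, 0.12 and 0.02 over all genes. Kif2c, a kinesin that depolymerizes microtubules at centromeres, stood at 109, 101 and 162 with NMS-1286937 and at 119 to 247 in DMSO (−0.72, adjusted p = 0.0679, with the block 0.0334). Prc1, which bundles the midzone spindle, stood at 587, 647 and 654 against 639 to 874 (−0.30, adjusted p = 0.121, with the block 0.0322). With the block, Racgap1 and the Aurora A activator Tpx2 also passed with NMS-1286937, all 4 as falls, and Cdc20, the activator of the anaphase-promoting complex, passed with GSK-461364 (−0.47, adjusted p = 0.236 without the block and 0.0345 with it). No member of these lists passed against DMSO under either fit with MK-5108 or SNS-314.

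Against the mean of the other 54 CKIs, where 1.23% of all genes passed with NMS-1286937, falls passed for 1 of 6 Aurora and PLK1 partners, 2 of 15 G2/M regulators, 3 of 14 spindle checkpoint and kinetochore genes and 6 of 13 spindle and cytokinesis genes. The medians were −0.15, −0.18, −0.24 and −0.28 beside −0.10 over all genes, and all 13 spindle and cytokinesis genes were below 0. The partner was Tpx2 (−0.31, adjusted p = 0.0319), and the G2/M regulators were Ccnb1, which encodes cyclin B1 (−0.72, adjusted p = 0.00343), and Cdc25c, a phosphatase that activates CDK1 (−0.87, adjusted p = 0.0374). Bub1b, Cenpe and Cenpf fell among the kinetochore genes, and Kif2c (−0.83, adjusted p = 0.00361), Kif20a, Prc1, Ect2, Nusap1 and Ckap2 among the spindle and cytokinesis genes. With the replicate block 1, 3, 5 and 7 members of the 4 lists passed. With the mitochondrial share and the block 2 of the 12 passed, Ccnb1 (adjusted p = 0.0246) and Kif2c (adjusted p = 0.0381). Scaling by the median of ratios, which moved the median of all genes to 0.01, left 3 members, and 0, 4 and 3 members passed without NMS-1286937 replicate 1, 2 and 3. No member passed in this comparison with the other 3 compounds.

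Genes of DNA replication stood slightly above DMSO without passing. Of 22 G1/S and replication genes, 19, 18, 19 and 17 were above 0 with GSK-461364, NMS-1286937, MK-5108 and SNS-314, with medians of 0.26, 0.15, 0.35 and 0.17, and 0 passed. The medians over all genes were 0.10, −0.04, 0.12 and 0.02 in that order. Scaling by the median of ratios gave list medians of 0.15, 0.20, 0.24 and 0.16. Over the 4 compounds the median was 0.24 beside 0.05 over all genes, and Mcm2 and Mcm7, subunits of the replicative helicase, passed with the block. In the other 54 CKIs, set against the same DMSO samples, 17 of the 22 were above 0, and Pcna passed. The median there was 0.16 beside 0.07 over all genes. Of 18 p53 targets, 15 were tested and 0 passed in any comparison of the 4 compounds with DMSO. Their medians ran from 0.07 to 0.12 over the single compounds, and from −0.03 to 0.17 under scaling by the median of ratios. Aryl hydrocarbon receptor, NRF2 and heat shock targets gave 0 calls against DMSO with each of the 4, apart from Hspa8 with GSK-461364 under the block. Of 9 ATF4 stress genes, Atf5 fell with SNS-314, and of 23 immediate-early genes, Fosb rose with NMS-1286937.

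**Figure D3:**
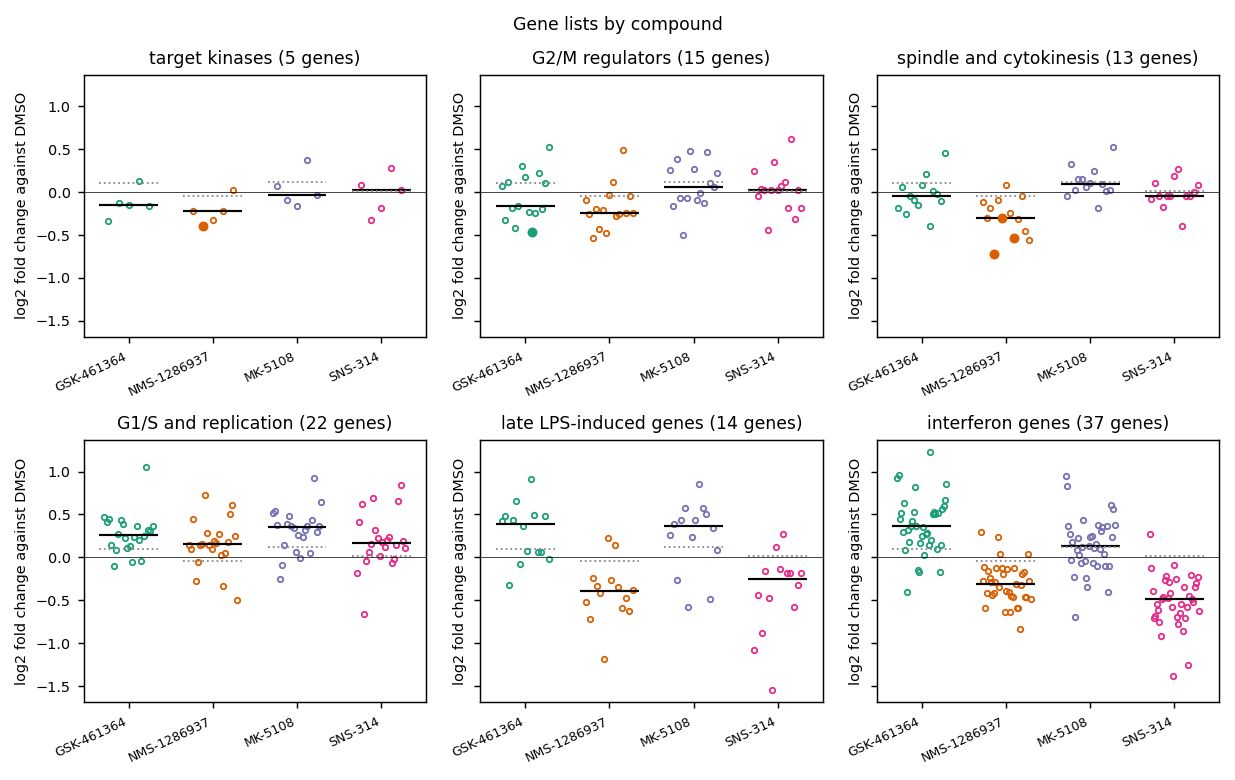
Log2 fold change against DMSO of every tested member of 6 of the gene lists for each compound, with 1 open or filled point per gene, with a black line at the list's median and a dotted line at the median of all genes. Filled points passed an adjusted p of 0.05 with the replicate block: Plk2, Kif2c, Prc1 and Racgap1 with NMS-1286937 and Cdc20 with GSK-461364.

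The main LPS-induced cytokines did not change past the threshold with any of the 4. Tnf stood at 12906, 8224 and 12388 with GSK-461364, 5473, 4484 and 6461 with NMS-1286937, 10748, 6361 and 16675 with MK-5108 and 5254, 4593 and 7080 with SNS-314, against 6668 to 8932 in DMSO. The log2 fold changes were 0.51 (adjusted p = 0.4), −0.51 (adjusted p = 0.805), 0.44 (adjusted p = 0.514) and −0.48 (adjusted p = 0.645). Il6, Il12b, Cxcl10, Ifnb1 and Nfkbia did not pass in any comparison of the 4 compounds with DMSO either, and the widest departure was that of Il6 with SNS-314, −1.08 with a 95% interval of −1.93 to −0.22 (adjusted p = 0.375). Against the other 54 CKIs, Il12b was at −0.87 with NMS-1286937 (adjusted p = 0.0414, with the block 0.0154, and 0.333 with the mitochondrial share added).

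Of 37 interferon genes, 33 were below 0 with NMS-1286937 and 36 with SNS-314, with medians of −0.31 and −0.49. With GSK-461364 and MK-5108, 33 and 25 were above 0, with medians of 0.37 and 0.13. The medians over all genes were 0.10, −0.04, 0.12 and 0.02 with GSK-461364, NMS-1286937, MK-5108 and SNS-314. Scaling by the median of ratios gave interferon medians of 0.27, −0.27, 0.01 and −0.50 in that order. None of the 37 passed against DMSO with any of the 4 compounds, and 9 had an unadjusted p below 0.05 with SNS-314. The 14 late LPS-induced genes had medians of 0.39, −0.39, 0.37 and −0.25 with GSK-461364, NMS-1286937, MK-5108 and SNS-314, and 0 passed. With the mitochondrial share and the block in the fit, the interferon medians were 0.02 with GSK-461364, −0.22 with NMS-1286937, −0.10 with MK-5108 and −0.41 with SNS-314. The sign turned for MK-5108, whose median without these terms was near that of all genes. The late LPS medians in that fit were −0.01, −0.26, 0.07 and −0.11 in the order given, so the sign turned for GSK-461364. The 23 early LPS-induced genes had medians of 0.14, −0.19, 0.07 and −0.14 in the same order of compounds, and 0 passed, although Tnfaip3, an inhibitor of NF-κB signalling, passed as a fall with SNS-314 under the block.

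MK-5108 and SNS-314, both listed against the Aurora kinases and used at nearly equal concentrations, differed in 5 genes (0.0393%). This was the only pair compared directly, and its p-values were adjusted over all genes tested. All 5 were higher with MK-5108. In all 5 the 3 MK-5108 samples lay above the 3 SNS-314 samples, which follows in part from their choice by a test on these samples. The differences on the log2 scale were 2.23 ± 0.44 for Ogfr (adjusted p = 0.0158), 1.63 for Was (adjusted p = 0.0421), 1.73 for Cmtm4 (adjusted p = 0.0421), 1.32 for Zxdb (adjusted p = 0.0421) and 0.93 for Tspyl1 (adjusted p = 0.0478). Cmtm4, a membrane protein, stood at 31, 21 and 35 with MK-5108 and at 6, 8 and 10 with SNS-314, with DMSO between them at 13 to 17. Zxdb stood at 22, 19 and 18 against 6, 7 and 9. Ogfr, Was and Tspyl1 are among the genes whose levels ran together over the 58 CKIs, with Cmtm4 (r = 0.49) and Zxdb (r = 0.20) less so. With the 2 MK-5108 libraries above 2.5% mitochondrial transcripts left out, 0 genes passed, and the difference in Ogfr was 2.25. Leaving out MK-5108 replicate 2 or 3, or SNS-314 replicate 1 or 2, also left 0 genes, MK-5108 replicate 1 left 2, and SNS-314 replicate 3 left 8.

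Transcripts of Aurka, Aurkb and Plk1 did not differ between MK-5108 and SNS-314 past the threshold. The difference, MK-5108 minus SNS-314, was 0.09 for Aurka (95% interval −0.30 to 0.49), −0.06 for Aurkb (−0.43 to 0.30) and −0.01 for Plk1 (−0.39 to 0.36). Jak2, the protein whose binding set the concentration of MK-5108, differed by 0.72 (adjusted p = 0.602). Cytokine transcripts did not pass after adjustment either, with 0.91 for Tnf (adjusted p = 0.566), 1.33 for Il6 (adjusted p = 0.541) and 0.84 for Il12b (adjusted p = 0.575), although the 95% intervals of these 3 genes and of Jak2 lay above 0. All 37 interferon genes were higher with MK-5108, with a median of 0.64 beside 0.10 over all genes, and none passed. That median was 0.30 with the mitochondrial share and the block in the fit. The median 95% interval of a gene in this comparison reached 0.50 to either side. It is not adjusted for the number of genes, so a typical gene needed a larger difference than that to pass.

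**Figure D4:**
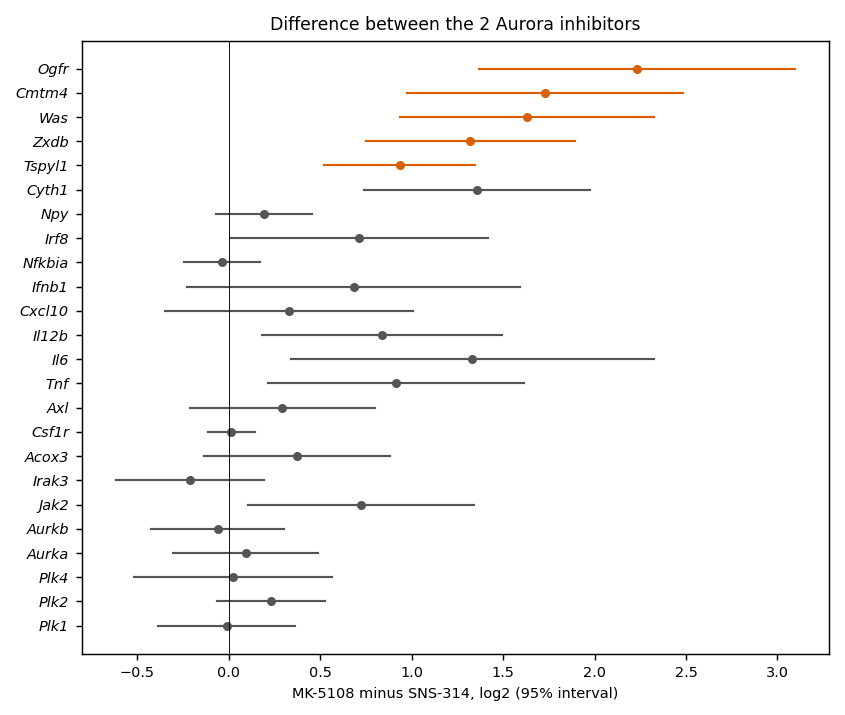
Log2 difference between MK-5108 and SNS-314 for selected genes, with 95% intervals not adjusted for the number of genes, where orange marks adjusted p below 0.05. Ogfr, Cmtm4, Was, Zxdb and Tspyl1 lie above 0, while the intervals of Plk1, Aurka and Aurkb include 0.

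Volasertib, also listed against PLK1 and used at its own concentration, is given beside the PLK1 inhibitors without a test between them. It was added after the values were seen, and changed 221 genes against DMSO (1.74%), 50 of which rose and 171 fell. With the replicate block the count was 637 (162 rose, 475 fell), with the mitochondrial share added 540, and the Volasertib libraries held 0.79% to 3.57% mitochondrial transcripts. Plk1 stood at 342, 522 and 446 with Volasertib and fell by 0.64 (adjusted p = 0.0164), beside −0.35 and −0.22 with GSK-461364 and NMS-1286937. Of the 13 spindle and cytokinesis genes 3 fell with Volasertib, namely Kif20a, Kif23 and Prc1, all 13 were below 0, and the median was −0.33 beside −0.30 with NMS-1286937 and −0.05 with GSK-461364. Aspm was at −0.79 and Ogfr at −2.30 with Volasertib, beside −0.84 and −2.36 with NMS-1286937.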

How the data were processed

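RNA was sequenced from LPS-stimulated BMDMs in 180 samples, 3 independent biological replicates per CKI and 6 with DMSO. The libraries were made by SMART-seq2 with Tn5, which keeps no strand. Per the labels and the methods, the authors aligned reads to mm10 with TopHat2 2.1.1 keeping 1 alignment per read, removed blacklisted regions (bedtools 2.29.2), counted exonic reads per curated RefSeq gene, and scaled them on invariant genes. The deposited values are these scaled reads rounded to whole numbers, and were treated as a score that is normalized and not as counts. The authors tested them with DESeq2 (R 3.6.2) with its own normalization off. The authors' scaling was kept.

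Here log2(value + 1) was fitted with limma 3.58.1 (R 4.3.3) with a variance trend, all groups in one fit, for 12714 genes with a mean of at least 10. Fold changes are on that scale and understate those of low genes. p-values were adjusted by Benjamini-Hochberg over all genes tested, with a threshold of 0.05. The mitochondrial share was compared by exact permutation (SciPy 1.17.1), over all samples and within replicate numbers. The design assumed that a test for counts might apply, and limma replaced it because the values are scaled. The code was tested on simulated data.

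Same-numbered samples of different groups deviated together. The mean correlation of their deviations from group means was 0.363 for equal numbers, and 0.254 or more in all 10 pairs of groups. For unequal numbers it was −0.180, which adds no support, since deviations from a group mean cancel within the group. Of the 42 single pairs of samples 41 were over 0.1, and the lowest was 0.0606. The numbers were taken as pairing the samples from the group means, before calls were compared, and values with the replicate block stand beside results that they change. The labels do not say which CKIs were prepared with which DMSO set.

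Genes named are those of the target lists, up to 5 rises and 5 falls per comparison that passed with all samples beyond the reference (with under 3 passing, the 5 smallest p), members of other lists that passed or up to 3 per list, and 6 response genes. Others, among them Npy, Trem1, Prmt1, Cyp51, Atg12 and Atg13 where the rule did not reach them, were chosen after their values were seen. The compounds and lists were chosen with earlier results of these data known. Alternatives were other pseudocounts, filters, scaling, fits, DMSO sets and samples left out. A few genes are not reported here.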

Additional observations from a re-analysis of the deposited data

Results flagged for a closer look

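Of 111 named genes, 8 had 1 DMSO sample standing apart from the other 5 by Dixon's criterion at the 95% level, which chance gives in about 1 group in 20. DMSO set 2 replicate 2 was the sample in 5 of them, with Trem1 at 25 (others 45 to 57), Fzr1 at 588 (330 to 401), Mad2l1 at 346 (446 to 475), Kif2c at 119 (201 to 247) and Txnrd1 at 2886 (2114 to 2252). DMSO set 2 replicate 1 stood apart in Plk2 at 1394 (1004 to 1122), Cdc25a at 31 (69 to 84) and Cyp51 at 999 (1199 to 1280), the value through which DMSO overlaps Cyp51 in GSK-461364, NMS-1286937 and MK-5108. Kif2c at 119 is the value through which DMSO overlaps the NMS-1286937 samples of that gene, and Trem1 at 25 lies in the comparison in which Trem1 rose.

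The effects of MK-5108 and SNS-314 against the same DMSO samples differed by the test of the difference itself in 5 genes. The difference, MK-5108 minus SNS-314 on the log2 scale, was 2.23 for Ogfr, 1.73 for Cmtm4, 1.63 for Was, 1.32 for Zxdb and 0.93 for Tspyl1. Whether these differences depend on when the libraries were prepared was not tested, since the labels give no batch.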

How the results depend on the processing

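The calls of Ogfr and Tspyl1 with NMS-1286937 and with SNS-314, and of Cyth1 with NMS-1286937, passed under all 12 alternatives other than leaving out single samples. Each DMSO set alone was among these. So was the fit without the libraries above 2.5% mitochondrial transcripts, which dropped no library of NMS-1286937, SNS-314 or DMSO. That fit left these log2 fold changes as they were and could move only the shared estimate of the spread. No named gene that passed turned its direction. Counts of genes changed moved more. With the replicate block they were 161 for GSK-461364, 178 for NMS-1286937, 99 for SNS-314, 69 for the PLK1 pair, 56 for the Aurora pair, 162 for the 4 against DMSO, 57 against the 54 CKIs and 10 between MK-5108 and SNS-314. With the mitochondrial share and the block they were 9, 250, 298, 71, 104, 161, 27 and 13 in that order. Without a filter they were 128 for GSK-461364, 124 for NMS-1286937, 134 for MK-5108, 106 for SNS-314, 15 for the Aurora pair, 102 for the 4 against DMSO, 12 against the 54 CKIs and 182 between MK-5108 and SNS-314. When the fit held no groups other than those compared, so with fewer samples for the spread, they were 3 for NMS-1286937, 2 for SNS-314, 0 for either pair, 5 for the 4 and 0 between MK-5108 and SNS-314. With DMSO set 1 alone they were 11, 6, 0, 0 and 1 for NMS-1286937, SNS-314, the PLK1 pair, the Aurora pair and the 4, and with set 2 alone 19, 11, 0, 0 and 0. Scaling by the median of ratios gave 1 for MK-5108, 4 for the PLK1 pair, 45 for the 4, 2 against the 54 CKIs and 1 between MK-5108 and SNS-314. A filter at 50 gave 5 for the PLK1 pair and 2 between MK-5108 and SNS-314, and a pseudocount of 10 gave 1 for the latter. Adding Volasertib to the PLK1 pair gave 81. Without the libraries above 2.5% mitochondrial transcripts, chosen after seeing the data, the counts were 0 for the Aurora pair, 3 for the 4 and 0 between MK-5108 and SNS-314. The cause of these moves was not tested.

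Leaving out 1 sample at a time, the counts ran from 0 to 30 for GSK-461364 (30 and 7 without DMSO set 2 replicate 1 and set 1 replicate 2), from 13 to 61 for NMS-1286937 (13 without its replicate 3, 27 without its replicate 1), from 0 to 4 for MK-5108 (4 without its replicate 2), from 1 to 62 for SNS-314 (1 and 13 without its replicates 1 and 2, 15 without DMSO set 2 replicate 2, 62 without DMSO set 1 replicate 3), from 0 to 15 for the PLK1 pair (0 and 12 without NMS-1286937 replicates 3 and 1, 15 and 4 without DMSO set 2 replicate 1 and set 1 replicate 1), from 0 to 20 for the Aurora pair (0 without MK-5108 replicate 1 or 3, SNS-314 replicate 1 or 2, or DMSO set 2 replicate 2, and 20 without MK-5108 replicate 2), from 2 to 43 for the 4 against DMSO (2 and 4 without DMSO set 2 replicate 2 and set 1 replicate 2, 43 and 41 without DMSO set 2 replicate 1 and MK-5108 replicate 2), from 0 to 4 against the 54 CKIs (0 without MK-5108 replicate 1 or 2) and from 0 to 8 between MK-5108 and SNS-314. With samples exchanged only within replicate numbers (the replicate block, added after seeing the data), the difference in mitochondrial share of 1.23 percentage points with GSK-461364 passed before adjustment (exact permutation p = 0.037, adjusted 0.148). The difference kept its sign, from 0.369 to 1.77 percentage points for GSK-461364, −0.392 to −0.155 for NMS-1286937, 0.483 to 1.65 for MK-5108 and −0.403 to −0.121 for SNS-314. With 3 samples per compound, changes smaller than the stated intervals were mostly not detectable. Larger changes could also be missed, since the intervals are not adjusted for the number of genes.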
